A study of Mus musculus with 7 samples.

Results

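Genes that export, store, take up or sense iron, or that break down heme, were examined as a set of 10 in tumor-associated macrophages with and without Dicer1. They are Slc40a1, Hmox1, Fth1, Ftl1, Tfrc, Slc11a1, Slc11a2, Spic, Ireb2 and Cd163, 10 of the 24084 genes listed in the files, and all 10 passed the filter on low counts that left 16226 genes for testing. The set was picked for the rise of Slc40a1 in Dicer1-deleted macrophages, so that rise is a description and is given without a test. The other 9 members were added by function, with results of these data known. Their adjusted p-values are given as outcomes of the fit over all genes and support nothing further.

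RNA was measured in F4/80+ cells sorted from tumors that the mouse line LLC, a Lewis lung carcinoma, formed under the skin. The Dicer1-deleted group (LysM-Cre;Dicer–/–, 3 libraries) was homozygous for a Cre recombinase in the lysozyme M locus and for a loxP-flanked Dicer allele. The control group (LysM-Cre;Dicer+/+, 4 libraries) carried the same homozygous Cre and an intact Dicer, so both groups share the altered lysozyme gene. This Cre is active in macrophages and also in neutrophils, and deletion need not be complete in every cell. The sources used here do not give the age or sex of the mice or how many stand behind a library. The p-values therefore reflect only how far these libraries spread, which may be partly technical. The comparison addressed how loss of Dicer1, the nuclease that makes mature microRNAs, alters macrophages in a tumor.

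Macrophages recycle the iron of red blood cells. Hemoglobin bound to haptoglobin is taken up through Cd163, heme is opened by heme oxygenase 1 (Hmox1), and the iron released is either stored in ferritin, a shell of heavy (Fth1) and light (Ftl1) chains, or exported by ferroportin (Slc40a1), the only known iron exporter of mammals. Transferrin-bound iron enters through the transferrin receptor (Tfrc) and crosses the endosome membrane through Slc11a2, while Slc11a1 moves divalent metals out of the phagosome. Spic is a transcription factor needed for the iron-recycling macrophages of the spleen. The iron regulatory proteins, encoded by Aco1 and Ireb2, bind hairpins called iron-responsive elements when iron is scarce. Bound in a 5′ UTR they block translation, and bound in the 3′ UTR of Tfrc they stabilize the mRNA.

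The iron-responsive elements that match a strict pattern are shown because the mode of control depends on the UTR that holds them. A search for the loop CAGTGN (N other than G), preceded by a bulged C and closed by 5 paired bases (G-T pairs allowed), on the transcript strand of GENCODE M21 transcripts found it in the 5′ UTR of 21 of 20561 genes (0.102%) and in the 3′ UTR of 98 of 20937 genes (0.468%). Fth1, Ftl1 and Slc40a1 held 1 match each in the 5′ UTR, and Tfrc held 4 in the 3′ UTR. In the lines that follow, the capitals mark the loop.
Fth1 5′ UTR, chr19:9982733-9982759, plus strand: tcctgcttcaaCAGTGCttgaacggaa
Ftl1 5′ UTR, chr7:45459780-45459806, minus strand: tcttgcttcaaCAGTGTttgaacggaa
Slc40a1 5′ UTR, chr1:45925466-45925492, minus strand: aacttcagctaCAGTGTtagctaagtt
Tfrc 3′ UTR, chr16:32631220-32631246, plus strand: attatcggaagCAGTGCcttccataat
Tfrc 3′ UTR, chr16:32631599-32631625, plus strand: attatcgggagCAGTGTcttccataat
Tfrc 3′ UTR, chr16:32631664-32631690, plus strand: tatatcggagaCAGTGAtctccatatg
Tfrc 3′ UTR, chr16:32631711-32631737, plus strand: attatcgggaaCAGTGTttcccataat
Positions are of the GRCm38 build. The other 6 members held no match to these letters, which says only that this pattern is not in their annotated UTRs. A hairpin that departs from the pattern would be missed, so the search cannot show that these 6 lack such an element. RNA levels do not show translational control, so the data bear on the amount of these mRNAs and not on the proteins.

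As Dicer1 makes microRNAs, seed sites in the longest 3′ UTR of each member were also searched for 15 microRNAs, among them miR-20a and miR-485-3p, which have been reported to target human ferroportin. A site is the reverse complement of bases 2 to 8 of the microRNA, searched on the transcript strand. The 3′ UTR of Slc40a1, 1338 bases long, held 2 sites of miR-20a-5p, 1 of miR-223-3p and 1 of miR-485-3p. These sites occurred in 14.3%, 9.17% and 4.35% of the 12112 tested genes with a 3′ UTR. The mature microRNAs from RefSeq (GRCm38.p6), with the seed in capitals, and the sites in Slc40a1 on the minus strand of chromosome 1 (GRCm38), with the matched bases in capitals, are as follows.
mmu-miR-20a-5p: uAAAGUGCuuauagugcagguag
mmu-miR-223-3p: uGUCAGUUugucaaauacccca
mmu-miR-485-3p: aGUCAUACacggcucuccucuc
miR-20a-5p site, chr1:45908313-45908319: cttttgatGCACTTTcatggaga
miR-20a-5p site, chr1:45908275-45908281: tgctgtgaGCACTTTctttgtcg
miR-223-3p site, chr1:45908588-45908594: aatgagagAACTGACctggcacc
miR-485-3p site, chr1:45908227-45908233: ttattacaGTATGACataatgat
Spic held 1 site of miR-20a-5p and 1 of miR-30a-5p, Ireb2 1 of miR-223-3p and 1 of miR-29a-3p, Hmox1 1 of miR-24-3p and Cd163 1 of miR-23a-3p. Tfrc held sites of 4 of the 15 microRNAs and Slc11a2 of 5, including let-7a-5p and miR-155-5p, in 3′ UTRs of 2458 and 2650 bases. Ftl1 held a site of miR-22-3p, and Fth1 and Slc11a1 held none. A match is a description of letters and not evidence of binding.

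The libraries held 43.0 to 51.2 M uniquely placed reads. Levels are counts per M reads (CPM) scaled by the trimmed mean of M-values (TMM). Dicer1 itself was at 6.86 to 7.85 CPM in the Dicer1-deleted and 15.7 to 18.6 CPM in the control libraries, counted over the whole gene and not over the deleted stretch alone. All 8 macrophage markers were above 1 CPM in every library, with summed levels of 8021 to 11877 CPM in Dicer1-deleted and 10072 to 11948 CPM in control libraries. The single markers differed, as Lyz2, the gene in whose locus the Cre sits in both groups, was at 50.7 to 67.2 CPM in Dicer1-deleted and 103 to 212 CPM in control libraries (DESeq2 adjusted p = 0.0144, edgeR adjusted p = 0.235). Cd14 was at 2643 to 3837 CPM and 4255 to 4685 CPM, also without overlap (edgeR adjusted p = 0.764). Erythroid markers summed to 26.7 to 669 CPM and 33.5 to 225 CPM, nearly all of it from the 4 globin genes, and Ahsp was not listed. Summed levels in the 2 groups were 8.74 to 16.1 and 11.3 to 13.7 CPM for T and NK cells, 112 to 155 and 35.7 to 75.4 CPM for B cells, 26.6 to 62.7 and 21.2 to 29.4 CPM for neutrophils, 18.9 to 27.2 and 15.9 to 33.3 CPM for fibroblasts, 39.4 to 72.1 and 3.68 to 16.9 CPM for endothelium, and 5.59 to 9.09 and 1.75 to 13.2 CPM for epithelial and tumor cells. The T and NK cell sum held markers that went in opposite directions without overlap. Cd2 was at 1.32 to 1.88 CPM in Dicer1-deleted and 3.90 to 7.66 CPM in control libraries. Nkg7 was at 2.64 to 6.02 and 0.673 to 1.73 CPM, and Cd3g at 1.29 to 1.66 and 0.0898 to 0.729 CPM. The other markers of that list overlapped. The endothelial sum came mostly from Pecam1, which myeloid cells also express. The B cell and endothelial sums did not overlap between groups, and their part in the results that follow was not tested. Cldn5 of endothelium and Camp of neutrophils were, like Ahsp, not listed in any library. Dicer1-deleted replicate 2 stood apart. It had the highest globin levels, the lowest level of Adgre1, the gene of the antigen used in the sort (233 CPM against 418 to 1072 CPM elsewhere), and the strongest tilt toward short transcripts. This tilt, the median log2 level, relative to the mean of the 7 libraries, of genes of 4360 bases or more minus that of genes of 1424 bases or less, was -0.84 in it, -0.37 and -0.46 in control replicates 1 and 2, and 0.34 to 0.47 in the other 4 libraries. In bulk RNA, more cells of a type and more RNA per cell cannot be told apart.

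Per transcript length, ferritin and heme oxygenase 1 were the most abundant members in control macrophages. Levels between genes are compared as the authors' RPKM, reads per kilobase and M reads, with multiply placed reads included. Ftl1 was at 1413 ± 533, Hmox1 at 1008 ± 628 and Fth1 at 925 ± 264 RPKM (SD, n = 4), and their ranges overlapped, so these 3 have no clear order. Each exceeded at least 99.3% of tested genes. Slc11a1 followed at 112 ± 28.5 RPKM, clear of both its neighbours in the order. Slc40a1 (25.6 ± 21.1), Tfrc (19.9 ± 20.4), Slc11a2 (9.21 ± 1.28), Spic (8.95 ± 8.63), Ireb2 (7.77 ± 4.15) and Cd163 (4.97 ± 3.97 RPKM) came next, and each overlapped the next in the order. In the Dicer1-deleted group Slc40a1 was at 318 ± 237 RPKM (SD, n = 3). Cd163, the hemoglobin receptor, was the least abundant member in both groups, with 1.73 ± 1.41 RPKM in the Dicer1-deleted one.

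**Figure D1:**
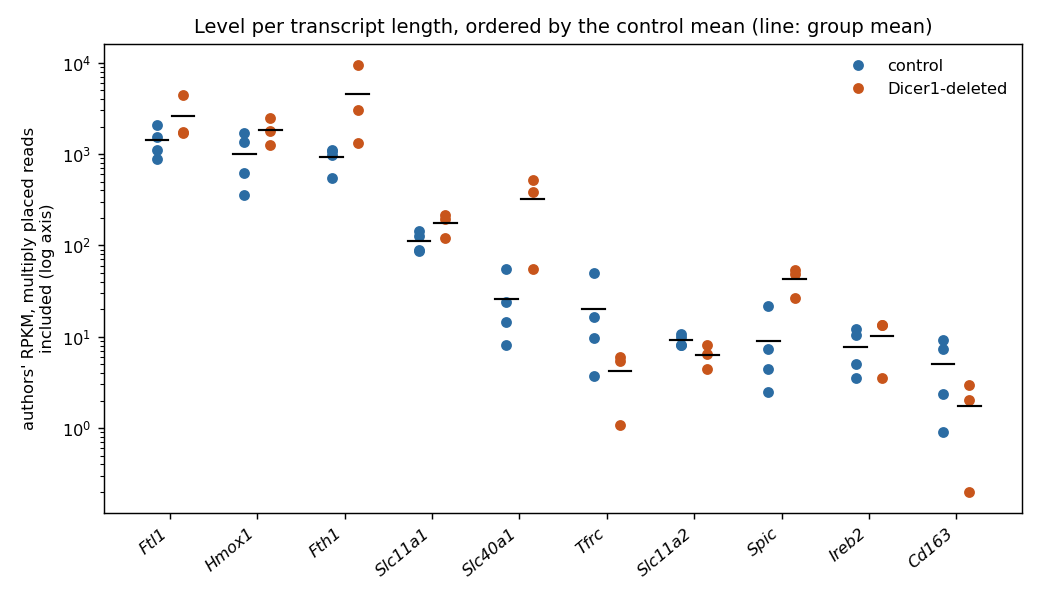
Level per transcript length of the 10 members, as the authors' RPKM with multiply placed reads included (log axis), in 4 control and 3 Dicer1-deleted libraries. Points are libraries and lines are group means. Ftl1, Hmox1 and Fth1 lie at or above 355 RPKM in every library, and the other members span 0.2 to 515 RPKM.

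Ferroportin mRNA was 12.2 times as abundant by the fit in Dicer1-deleted macrophages. Slc40a1 was at 1740.4, 224 and 1265 CPM in Dicer1-deleted replicates 1, 2 and 3, and at 50.0, 86.4, 26.3 and 189 CPM in control replicates 1 to 4. Replicates 1 and 3 were far above every control library, while replicate 2 was near control replicate 4. The group means were 1076 ± 776 and 88.0 ± 71.9 CPM (SD, n = 3 and 4), with a fitted log2 fold change of 3.61 ± 0.79 (SE). The gap between the groups was narrow. Without TMM scaling, Dicer1-deleted replicate 2 was at 194 CPM and control replicate 4 at 193 CPM. On the authors' RPKM scale they were at 55.5 and 55.7, where the groups overlapped. Leaving out control replicate 4 gave 4.31, the largest value with 1 library left out, and leaving out Dicer1-deleted replicate 1 gave 3.08, the smallest. The titles carry a code, L4 or L5, whose meaning is not given, with both groups in each. The difference in mean log2 CPM was 2.62 within L4 (2 Dicer1-deleted and 1 control library) and 4.79 within L5 (1 and 3). Reads of Slc40a1 were placed uniquely, with at most 0.0587% shared with other genes. Slc40a1 lies on chromosome 1 at 45908068 to 45926523, and no annotated exon of another gene overlaps it.

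**Figure D2:**
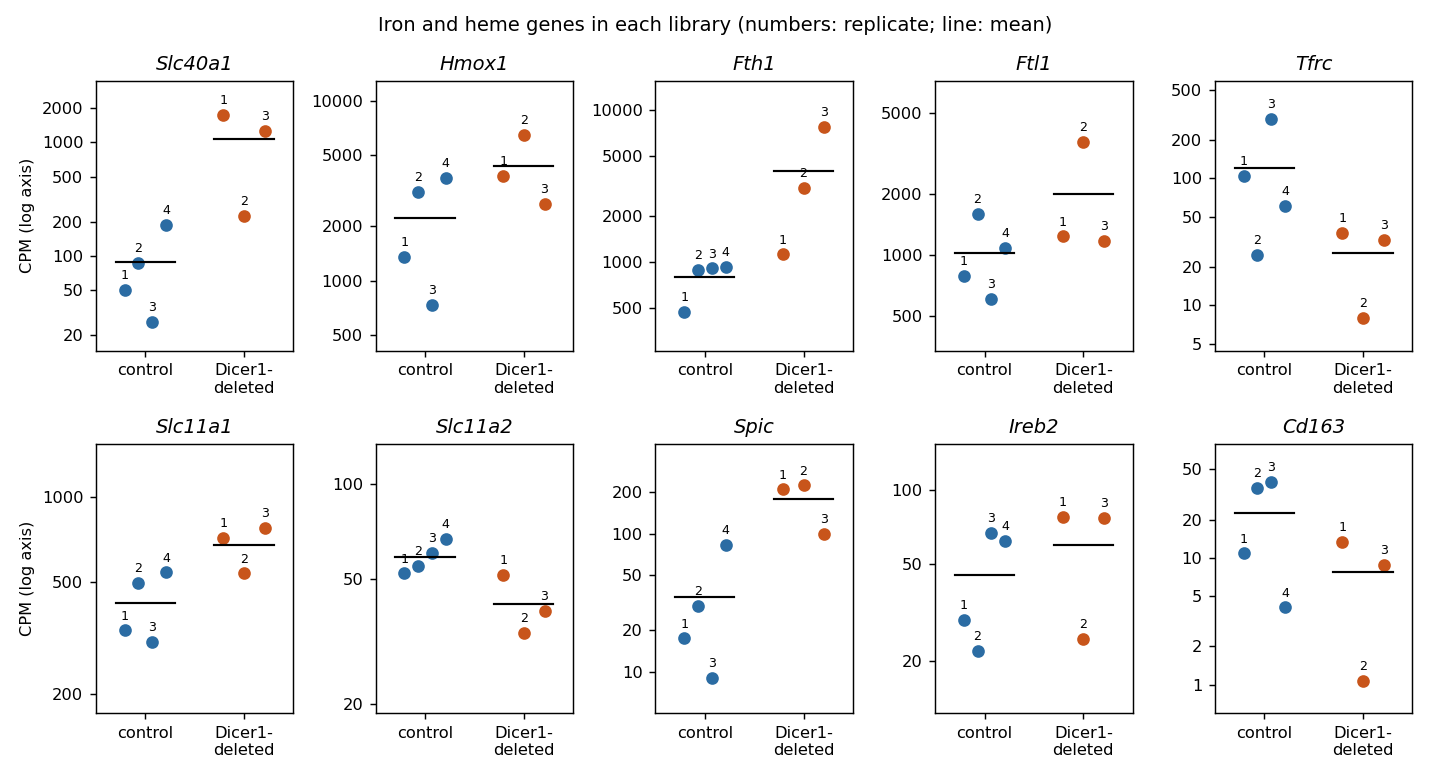
Level of each member in each library, in TMM-scaled CPM (log axis, scaled per gene). Numbers are replicates and lines are group means. Slc40a1, Fth1 and Spic have all Dicer1-deleted libraries above all control libraries, Slc11a2 has all below, and the other 6 overlap.

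Spic was 5.07 times as abundant in the Dicer1-deleted group by the fit. It was at 209, 223 and 99.6 CPM in the 3 Dicer1-deleted libraries and at 17.5, 30.1, 9.04 and 83.2 CPM in the controls. Every Dicer1-deleted library was above every control, and control replicate 4 came closest. In the fit it differed by 2.34 ± 0.67 (log2, SE), with an adjusted p over all genes of 0.303 in edgeR and 0.0191 in DESeq2. Without Dicer1-deleted replicate 2 the DESeq2 log2 fold change was 2.13 and its adjusted p 0.384. Without control replicate 4 the edgeR log2 fold change of Spic was 3.23. Within L4 and L5 the differences were 2.31 and 3.14 in mean log2 CPM. Dicer1-deleted replicate 2, which has the highest Spic, also has the highest erythroid marker sum, whose part was not tested.

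Heme oxygenase 1 mRNA varied widely between libraries of both groups. Hmox1 was at 3819, 6426 and 2669.8 CPM in the Dicer1-deleted libraries and at 1359, 3122, 733 and 3709.6 CPM in the controls. The groups overlapped, with control replicates 2 and 4 above Dicer1-deleted replicate 3. In the fit Hmox1 differed by 0.95 ± 0.55 (log2, SE), and its adjusted p in edgeR was 0.810. Without Dicer1-deleted replicate 2 the difference was 0.53 (log2). That library had both the highest Hmox1 and the highest summed erythroid markers, 669 CPM, and control replicate 3 had the lowest Hmox1 with 33.5 CPM of these markers. The control libraries ranked alike in both levels, with erythroid sums of 90.0, 125, 33.5 and 225 CPM in replicates 1 to 4. In the other Dicer1-deleted libraries the 2 levels parted. Dicer1-deleted replicate 1 had 62.4 CPM of erythroid markers with the second highest Hmox1. The lowest erythroid sum, 26.7 CPM, was in Dicer1-deleted replicate 3, whose Hmox1 was above control replicates 1 and 3. The part of erythroid RNA in this result was not tested.

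Cd163, the scavenger receptor for hemoglobin and haptoglobin, was low and scattered. It was at 13.4, 1.07 and 8.84 CPM in the Dicer1-deleted libraries and at 10.8, 35.5, 39.6 and 4.06 CPM in the controls. The groups overlapped, and the lowest control library was below 2 of the 3 Dicer1-deleted ones. For Cd163 the fitted log2 fold change was -1.54 ± 0.90 (SE), and its adjusted p in edgeR was 0.811. Within L4 the difference was -3.53 and within L5 it was 0.15.

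The ferritin chains were both higher on average, but in different libraries. Fth1 was at 1121, 3077 and 7763 CPM in the Dicer1-deleted libraries and at 469, 891, 906 and 924 CPM in the controls. All Dicer1-deleted libraries were above all controls, with replicate 3 far above the rest and replicate 1 near the controls. For Fth1 the fitted log2 fold change was 2.32 ± 0.57 (SE), with an adjusted p of 0.227 in edgeR and 0.00317 in DESeq2. Without Dicer1-deleted replicate 3 it was 1.39, and within L5, which holds Dicer1-deleted replicate 1, the difference was 0.61 against 2.46 within L4. Ftl1 was at 1231, 3571 and 1174 CPM against 789, 1588, 608 and 1086 CPM. Here Dicer1-deleted replicate 2 was high and the other libraries of both groups overlapped. For Ftl1 the fitted log2 fold change was 0.97 ± 0.48 (SE), and its adjusted p in edgeR was 0.704. Without Dicer1-deleted replicate 2 the difference was 0.23 (log2).

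The balance of the 2 chains differed in 1 library. The ratio of Fth1 to Ftl1 on the authors' RPKM scale was 0.758, 0.678 and 5.52 in the Dicer1-deleted libraries and 0.484, 0.462, 1.25 and 0.696 in the controls. Dicer1-deleted replicate 3 was far above the rest, and the other Dicer1-deleted libraries lay within the control range. Between 46.7% and 49.7% of the reads assigned to Ftl1 were also placed elsewhere, where near-identical copies exist, so its unique count understates its level. For Fth1 this share was 1.03% to 1.79%. With multiply placed reads included the log2 fold changes of Fth1 and Ftl1 were 2.33 and 0.999. Ftl1 also overlaps exons of Gm10252 on the opposite strand and Gm22133 on its own, and this kit keeps no strand.

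Transferrin receptor mRNA was lower on average in the Dicer1-deleted group, with overlap. Tfrc was at 37.1, 7.93 and 32.7 CPM in the Dicer1-deleted libraries and at 104, 24.8, 292 and 60.6 CPM in the controls. The controls spanned an 11.8-fold range, and control replicate 2 lay below Dicer1-deleted replicates 1 and 3. For Tfrc the fitted log2 fold change was -2.21 ± 0.83 (SE), with an adjusted p of 0.489 in edgeR and 0.0842 in DESeq2. Without control replicate 3 it was -1.28, and with the L code as covariate -1.20. Within L4 and L5 the differences were -0.62 and -1.72.

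The divalent metal transporters had the smallest differences after Ireb2, and neither passed. Slc11a1, the transporter of the phagosome, was at 716, 535 and 775 CPM in the Dicer1-deleted libraries and at 335, 497, 306 and 539.7 CPM in the controls. Dicer1-deleted replicate 2 and control replicate 4 had nearly the same level, so the groups overlapped. For Slc11a1 the fit gave 0.69 ± 0.30 (log2, SE), and its adjusted p in edgeR was 0.614. Slc11a2, the transporter of the endosome, was at 51.6, 33.7 and 39.6 CPM against 52.1, 54.9, 60.5 and 67.1 CPM. It had the tightest controls of the 10 members, with a 1.29-fold range. The groups did not overlap after TMM scaling but did without it, at 52.9 CPM in Dicer1-deleted replicate 1 and 52.8 CPM in control replicates 1 and 2. Fitted over all libraries, Slc11a2 differed by -0.49 ± 0.25 (log2, SE), and its adjusted p in edgeR was 0.714. Slc11a2 overlaps exons of Gm5475 on the opposite strand.

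The iron sensors were low in the same 3 libraries, which come from both groups. Ireb2, which encodes iron regulatory protein 2, was at 77.3, 24.5 and 76.7 CPM in the Dicer1-deleted libraries and at 29.3, 21.9, 66.6 and 61.7 CPM in the controls. Its 3 low libraries, Dicer1-deleted replicate 2 and control replicates 1 and 2, were those with the negative tilt in transcript length, whose part was not tested beyond the corrected fit given here. Aco1, which encodes iron regulatory protein 1, was also lowest in these 3, at 21.6, 39.7 and 30.5 CPM against 57.7 to 76.3 CPM in the other 4. The longest annotated transcript of Ireb2 has 5770 bases. Ireb2 had a fitted log2 fold change of 0.41 ± 0.50 (SE), and its adjusted p in edgeR was 0.996. With a correction for transcript length, chosen after seeing the data, it was 0.38 ± 0.39 (log2, SE). Aco1 differed by -0.15 ± 0.44 (log2, SE), and its adjusted p in edgeR was 0.996.

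Of the 9 members other than Slc40a1, edgeR called 0 at an adjusted p of 0.05 and 4 had an unadjusted p under 0.05. At the adjusted threshold it called 4 of 16226 genes (0.0247%), 0.00616% higher and 0.0185% lower. DESeq2 called 2 of the 9 higher, Fth1 and Spic, against 0.924% of all genes called higher and 1.57% called lower (2.5% in either direction). The members were picked on this contrast, so nothing is read from these shares. Unadjusted edgeR p-values were under 0.05 for 8.01% of all genes. Again without Slc40a1, 2 of the 9 were higher and 1 lower without overlap. Over all genes 9.31% did not overlap, 3.86% higher and 5.44% lower. Of the 9 members, 6 had a positive log2 fold change, with a median of 0.69, against 52.6% positive and a median of 0.03 over all genes.

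**Figure D3:**
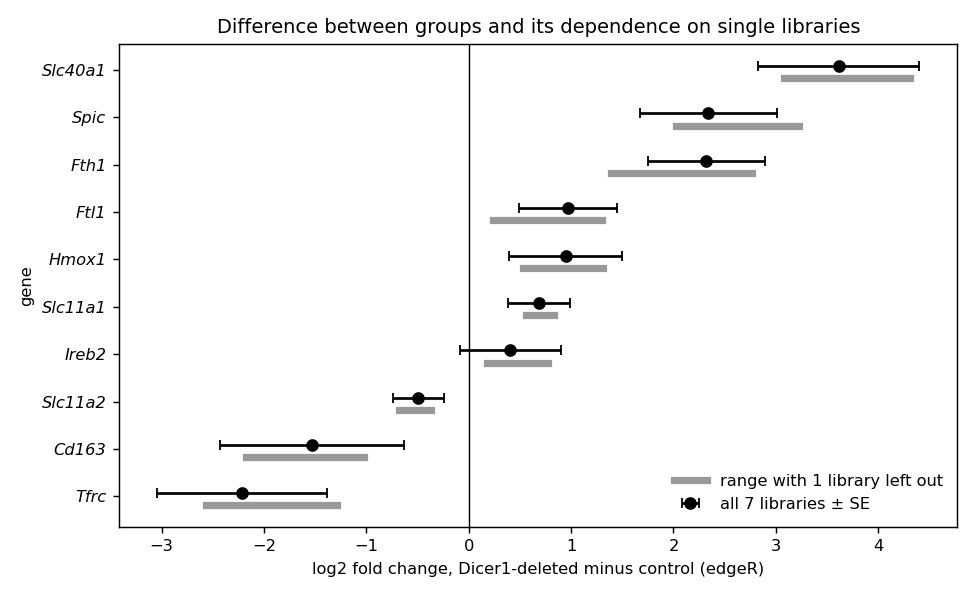
Fitted log2 fold change of each member, Dicer1-deleted minus control, with its standard error (black) and the range of values with each of the 7 libraries left out in turn (grey). Every grey bar stays on its side of 0, and that of Fth1 runs from 1.39 to 2.76.

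Within the control group several members ranked the libraries alike. Slc40a1, Spic, Hmox1 and Slc11a1 were each highest in control replicate 4, then 2, then 1, and lowest in 3. This order was noticed after the values were seen, and 455 of 16226 tested genes (2.8%) showed it. The highest control exceeded the lowest 7.19-fold for Slc40a1, 9.2-fold for Spic, 5.06-fold for Hmox1 and 1.76-fold for Slc11a1. Slc48a1, the heme transporter of the lysosome, Vcam1, an adhesion protein of red pulp macrophages, and Gclm, a glutathione synthesis subunit, had the same order. Other genes had it too, among them Nqo1, Me1, Calhm6 and the neutrophil markers S100a8 and S100a9. So did the 4 globin genes, with Hbb-bs at 61.6, 33.8, 24.9 and 7.55 CPM, and the part of erythroid RNA was not tested. Tfrc was highest in control replicate 3, where these genes were lowest, but it was lowest in replicate 2. The members Fth1, Ftl1, Slc11a2, Ireb2 and Cd163 had other orders. So did Blvrb, Prdx1, Slc7a11, Treml4, Gsr, Nr1h3 and Pparg, which were also looked at. In the Dicer1-deleted group the genes that shared the order of Slc40a1 parted. Slc40a1, Slc11a1 and Vcam1 were lowest in replicate 2, where Hmox1, Spic, Slc48a1, Gclm and the globin genes were highest.

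**Figure D4:**
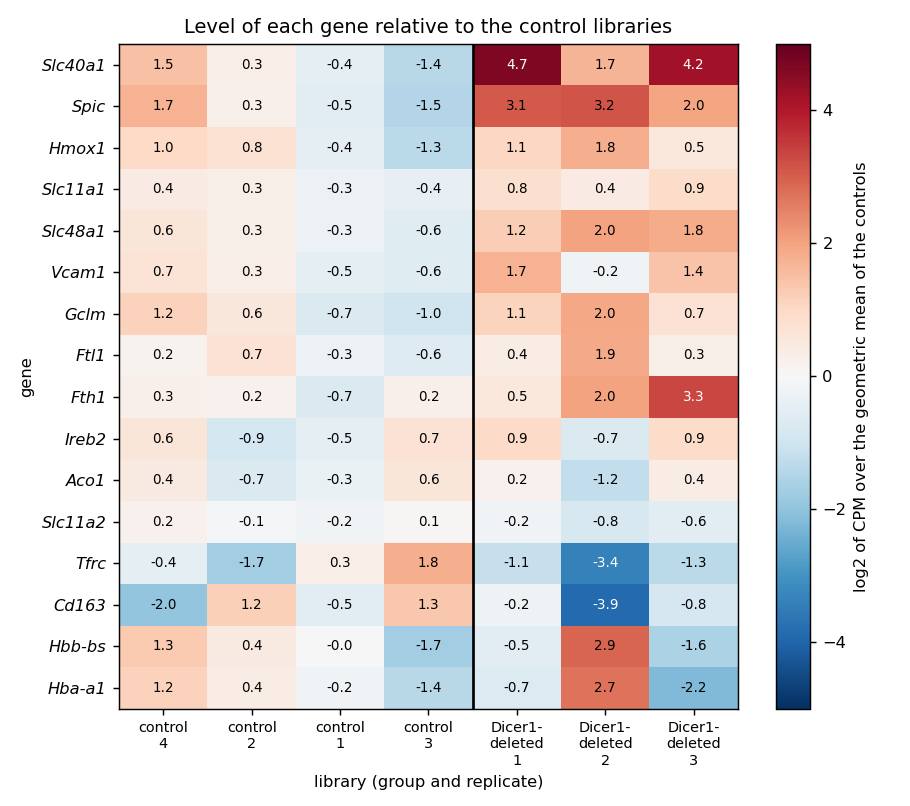
Log2 of the CPM of each gene over the geometric mean of the 4 controls, by library. Rows are the members, the list genes Slc48a1, Vcam1, Gclm and Aco1, and the globin genes Hbb-bs and Hba-a1. Columns are libraries with the controls in the order of Slc40a1. The upper 7 rows group genes that fall from left to right in the controls. Blvrb, Prdx1, Slc7a11, Treml4, Gsr, Nr1h3 and Pparg, which had other orders, are not shown. Slc40a1 is at 4.68, 1.72 and 4.22 in the Dicer1-deleted libraries.

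Other genes of iron and heme handling were taken from 6 lists chosen by function, with 62 of 70 genes tested. edgeR called none of them at an adjusted p of 0.05, and 14 had an unadjusted p under 0.05, against 8.01% of all tested genes. At an adjusted p of 0.05 DESeq2 called 5 higher and 1 lower, against 0.924% and 1.57% of all tested genes. Their median log2 fold change was 0.16, with 39 positive values, against 52.6% positive over all tested genes. The groups did not overlap for 10 higher and 2 lower, against 3.86% and 5.44% of all tested genes.

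Of 10 tested genes of heme uptake, export and breakdown, Slc48a1 was the gene that passed in DESeq2, where 0.924% of all tested genes were called higher. Slc48a1, which carries heme out of the lysosome, was at 76.0, 130 and 115 CPM in the Dicer1-deleted libraries and at 26.1, 38.9, 21.3 and 48.8 CPM in the controls. The groups did not overlap. The fitted log2 fold change was 1.66 ± 0.34 (SE), with an adjusted p of 0.156 in edgeR and 0.00128 in DESeq2, and it kept a DESeq2 adjusted p of 0.0113 without Dicer1-deleted replicate 2. The biliverdin reductases Blvra and Blvrb, which act after heme oxygenase, were at log2 fold changes of -0.02 and 1.02, and the heme exporter Flvcr1 at -0.26. Of these 10 genes 4 were positive, and the median was -0.04.

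Of 18 tested genes of iron uptake, sensing and transport, Steap4 passed in DESeq2, as a fall, where 1.57% of all tested genes were called lower. Steap4, a metalloreductase, was at 1.29, 0.305 and 0.427 CPM against 8.34, 0.628, 14.8 and 3.97 CPM. Control replicate 2 lay within the Dicer1-deleted range, so the groups overlapped. Its fitted value was -3.35 ± 0.98 (log2, SE), with an adjusted p of 0.313 in edgeR and 0.00621 in DESeq2. The median of this list was 0.01, with 9 positive values. Fbxl5 and Ncoa4, which govern the turnover of iron regulatory protein 2 and of ferritin, were at 0.61 and -0.02. Hamp, the gene of hepcidin, the hormone that removes ferroportin from the cell surface, was at 0 in 6 of the 7 libraries and was not tested.

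None of the 8 heme synthesis genes passed in edgeR or DESeq2. Alas1, the rate-limiting enzyme, was at 76.3, 39.1 and 72.0 CPM in the Dicer1-deleted libraries and at 137, 128, 164 and 78.9 CPM in the controls, without overlap. It differed by -1.03 ± 0.35 (log2, SE; edgeR adjusted p = 0.413). The list's median was -0.10, with 3 positive values.

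Among 10 regulators, Nr1h3 passed in DESeq2, where 0.924% of all tested genes were called higher. Nr1h3, the nuclear receptor LXR alpha, was at 160, 161 and 116 CPM against 87.1, 83.1, 54.9 and 85.8 CPM, without overlap. The fit gave 0.91 ± 0.27 (log2, SE), with an adjusted p of 0.322 in edgeR and 0.0487 in DESeq2, and of 0.172 in DESeq2 without Dicer1-deleted replicate 2. Bach1, the heme-sensing repressor of Hmox1 and Spic, was at 60.0, 59.0 and 59.7 CPM in the Dicer1-deleted libraries and at 38.6, 49.2, 44.8 and 47.3 CPM in the controls. The groups did not overlap, and the fit gave 0.41 ± 0.22 (log2, SE; edgeR adjusted p = 0.747). Nfe2l2, which encodes NRF2, an activator of Hmox1, ferritin and ferroportin genes, was at 0.04 ± 0.30 (log2, SE). Epas1, which encodes the hypoxia factor HIF-2 alpha, was named after its values were seen. It was at 0.498, 0.559 and 0.640 CPM against 0.922, 1.08, 2.37 and 3.60 CPM, lower without overlap. Its fitted value was -1.81 ± 0.58 (log2, SE), with an adjusted p of 0.370 in edgeR and 0.0904 in DESeq2. The median of the list was 0.22, with 8 positive values, against a median of 0.03 and 52.6% positive over all tested genes.

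Of 10 targets of NRF2, Gsr passed in DESeq2 and none in edgeR, where 0.924% of all tested genes were called higher in DESeq2. All 10 had a positive log2 fold change, with a median of 0.76, against 52.6% positive over all tested genes, and 7 of the 10 overlapped between groups. Gsr, glutathione reductase, was at 62.5, 101 and 60.4 CPM in the Dicer1-deleted and 28.5, 19.3, 25.1 and 34.4 CPM in the control libraries, without overlap. Gsr had a log2 fold change of 1.47 ± 0.29 (SE), with an adjusted p of 0.15 in edgeR and 0.00111 in DESeq2. G6pdx, an enzyme that makes NADPH, and Me1 also did not overlap between groups, at 0.47 ± 0.25 and 0.87 ± 0.58, and neither passed. Slc7a11 and Gclm were at 0.97 and 1.08, with overlap.

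Of 6 genes of red pulp macrophages, Treml4 and Pparg passed in DESeq2, where 0.924% of all tested genes were called higher. The rise of Treml4 was known when the list was drawn up. Treml4, a receptor of myeloid cells, was at 214, 261 and 120 CPM against 17.9, 37.6, 10.7 and 17.8 CPM, without overlap. Treml4 had a log2 fold change of 3.24 ± 0.46 (SE), with an adjusted p of 0.105 in edgeR and 7.5e-09 in DESeq2. Pparg, a lipid-sensing nuclear receptor, was at 16.9, 16.2 and 11.6 CPM against 6.46, 5.34, 4.63 and 9.07 CPM, also without overlap. Pparg had a log2 fold change of 1.23 ± 0.31 (SE), with an adjusted p of 0.233 in edgeR and 0.0184 in DESeq2, and of 0.0946 in DESeq2 without Dicer1-deleted replicate 2. Vcam1, an adhesion protein, was at 175, 46.2 and 142 CPM against 38.5, 67.1, 35.0 and 85.8 CPM. Its fitted value was 1.10 ± 0.48 (log2, SE; edgeR adjusted p = 0.599). Dicer1-deleted replicate 2 was the library that overlapped the controls, and without that library it passed in DESeq2 (adjusted p = 0.0163). Itgad, an integrin chain, was below 3 CPM in every library. It was at 1.33, 2.79 and 1.66 CPM against 0.293, 0.224, 0.911 and 1.23 CPM, higher without overlap. The fit gave 1.53 ± 0.65 (log2, SE), with an adjusted p of 0.586 in edgeR and 0.341 in DESeq2. Mrc1, the mannose receptor, and Adgre1 overlapped between groups, with log2 fold changes of -0.25 and 0.22. Of the 6 genes 5 were positive, and the median was 1.16, against 52.6% positive and a median of 0.03 over all tested genes.

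The genes whose levels followed Slc40a1 most closely over the 7 libraries were Dnase1l3, Serpina3f, Gbp4, Spic and Calhm6. Likeness was the root mean square difference in log2 CPM after centring each gene, over 10316 other genes of at least 5 CPM on average, and it was 0.98, 0.99, 1.10, 1.13 and 1.21 for these 5. They are the nearest genes with a symbol, and 1 ID without one was also closer than Spic. Dnase1l3, a secreted nuclease, was at 328, 153 and 268 CPM in the Dicer1-deleted and 8.97, 6.06, 2.55 and 22.2 CPM in the control libraries. Serpina3f, a protease inhibitor from a cluster of close copies, was at 22.3, 10.98 and 11.95 CPM against 2.05, 6.73, 0.766 and 5.06 CPM. Gbp4, an interferon-induced GTPase, was at 231, 76.4 and 129 CPM against 39.997, 23.3, 22.6 and 91.3 CPM, with overlap. Calhm6, a channel protein, was at 10.05, 14.2 and 9.65 CPM against 1.97, 2.33, 0.984 and 2.60 CPM. As the measure spans both groups, it reflects the difference for which Slc40a1 was chosen. Counting IDs without a symbol, Spic was the nearest member at rank 5, followed by Fth1, Slc11a1 and Hmox1 at ranks 103, 120 and 126, while Tfrc and Cd163 were among the least alike.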

How the data were processed

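Each deposited table lists genes of 1 library with unique read counts, as the authors named them. The authors also deposited expected counts, in which multiply placed reads enter as fractions, and RPKM, without stating the gene lengths or totals used. The submitters' processing notes name Bowtie2. The build, annotation and counter are each recorded as not given in the sources used here. The labels' protocols describe amplification of cDNA from 2 ng of RNA and paired reads of 50 nt without strand or molecular identifiers, so depth overstates precision. All unique counts were even, so both mates were counted. Unlisted values (31124) were set to 0. Symbols came from GENCODE M21, with 21813 of 24084 IDs matched.

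Groups follow the genotype label. Unique counts were fitted in edgeR 4.0.16 (R 4.3.3, filterByExpr, TMM, quasi-likelihood F test, Benjamini-Hochberg over 16226 genes). Alternatives were DESeq2 1.42.0, limma 3.58.1 (voom), RLE size factors, other count filters, rounded expected counts, the L code as covariate or within it, and each library left out. Standard errors are the log2 fold change over the square root of F. The biological coefficient of variation was 45.1%. A fit corrected for transcript length (lowess, 94.4% of genes) and DESeq2 without Dicer1-deleted replicate 2 were added after seeing the data. The fits were tested on simulated data. Members and lists were chosen with earlier results of these data known. Named genes are the members, list genes called by edgeR or DESeq2, up to 3 more per list of at least 5 CPM without overlap, Bach1, Nfe2l2, Aco1, Dicer1 and the 5 nearest patterns. Others, such as Vcam1, Mrc1, Lyz2, Blvrb and Hbb-bs, were named after their values were seen. A result for 1 gene that the rule names is not reported here. Python 3.11.15, numpy 2.4.6 and pandas 2.3.3 were used for the tables.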

Additional observations from a re-analysis of the deposited data

Results flagged for a closer look

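Of 27 genes checked, 2 had 1 control library that stood apart from the other 3, as the gap to its nearest neighbour over the whole range of the group exceeded Dixon's critical value. Chance flags about 1 in 20 such groups. For Fth1 this share was 0.927, because control replicate 1 was at 469 CPM and the others at 891 to 924 CPM. For Nr1h3 it was 0.874, because control replicate 3 was at 54.9 CPM and the others at 83.1 to 87.1 CPM.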

How the results depend on the processing

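The log2 fold change of Slc40a1 stayed between 2.62 and 4.79 over 18 alternatives, and 3.08 to 4.31 with 1 library left out. The other 9 members kept their sign in all alternatives, except Cd163 within L5. In edgeR none passed under any alternative. The number of genes called over all genes, 4 in edgeR, was 405 in DESeq2, 338 in DESeq2 without Dicer1-deleted replicate 2, 2 in limma-voom, 42 with no count filter, 1 with the 10 CPM filter, 0 with the L code as covariate and 8 with the length correction, and 0 to 3 with 1 library left out. It was 0 without Dicer1-deleted replicate 1 or any control replicate. Of the pathway genes, 0 in edgeR, 6 passed in DESeq2, 5 in DESeq2 without Dicer1-deleted replicate 2, and 1 (Treml4) both with no count filter and with the length correction. The number was 0 with each library left out. The causes were not tested. No paired analysis was possible because the labels give the groups no shared replicate numbers. No alternative changed the depth, so its effect on these results was not measured.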
